A study of Mus musculus with 3 samples.

Results

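The genes described here are 39 mouse genes of homologous recombination, of the BRCA1 complexes and of the signalling around DNA breaks, chosen by name, of 18193 genes on the arrays. A total of 36 had at least 1 probe set of their own, with 86 probe sets in all, and each gene was read from its brightest probe set, judged on its mean across the 3 arrays. Of these genes 11 had 1 probe set and 25 had several. Rbbp8, Xrcc2 and H2afx were not analysed here. The cells were embryoid bodies of mouse embryonic stem cells of strain 129S7/SvEv Brd-Hprt b-m2 on day 7 of culture, 1 array per genotype. The RQ bodies carried human BRCA1 with R1699Q in the design of the series, while the array itself is described as R1669Q. The MI bodies carried human BRCA1 with M1652I, and the WT bodies carried wild-type human BRCA1. All 3 groups therefore share a human BRCA1 gene in mouse cells, and the labels do not say what the cells retain of mouse Brca1, how the human gene is driven or how many clones stand behind each genotype. Feeder cells were taken off by attachment to gelatin before the bodies were formed.

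Homologous recombination repairs a broken chromosome by copying the intact sister. The MRE11-RAD50-NBN complex and EXO1 cut back the ends, RPA coats the single strands, and BRCA1 with BARD1 and PALB2 brings BRCA2, after which the strand invades the sister. ATM and ATR signal the damage, 53BP1 with RIF1 opposes end cutting, and the Fanconi proteins use the same machinery at crosslinks. Many of these genes are transcribed most in S phase, and embryonic stem cells, which divide fast, are known to rely on this pathway.

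With 1 array per genotype there was no replicate check, no test was possible and precision is limited by having 3 arrays. Values are log2 signals as deposited, and a difference is the log2 value of the first-named array minus that of the second. The mean signal over all 45101 probe sets was 6.60 on each array, and the spread over probe sets had an SD of 1.17 for RQ, 1.06 for MI and 1.17 for WT, so that MI was the narrowest. A gene was read as above the level filter in a comparison when the higher of its values was at least 6.31, which is the median of all signals. Differences with MI are also given after a lowess correction, which subtracts the trend of all genes at the same signal level. The best available gauge of measurement scatter was the gap between the differences of a gene's 2 brightest probe sets. Its median over all genes was 0.19 for RQ against WT, 0.19 for MI against WT and 0.19 for RQ against MI. Both probe sets read the same RNA on the same arrays, so the gap leaves out variation between arrays, cultures and clones.

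The first comparison asks how the recombination genes stood in bodies with the RQ variant. The single-strand binding genes Rpa1 and Rpa2, the exonuclease gene Exo1, Brca2, Rif1, Rad54l, Palb2, Chek2, Atr and Atm exceeded WT by at least 1.5-fold in RQ, whereas Trp53bp1, which encodes 53BP1, lay at least 1.5-fold below WT. These were 10 higher and 1 lower of the 30 members above the level filter, against 6.9% of 12226 genes above the filter that were at least 1.5-fold higher and 4.34% that were at least 1.5-fold lower. At 2-fold there was 1 member higher, Rpa1, and 0 lower, against 1.68% and 1.49% of genes. The median difference of the 30 members was 0.42 and that of all genes above the filter was 0.01, with 21 members above 0, against 51.7% of genes. After correction for signal level the same 10 and 1 genes passed 1.5-fold, against 6.45% and 4.57% of genes. Over all 36 members with a probe set, the filter left aside, the median was 0.34, 26 were above 0, and 10 were at least 1.5-fold higher and 1 lower, against 49.1% of 18193 genes above 0, 4.64% higher and 2.93% lower, with a median of -0.003. Nbn, Fancm and Wrn passed the filter on 1 of the 2 arrays alone. Bard1, Xrcc3, Rad54b, Brip1, Atrip and Fanca lay below the filter on all 3 arrays, where signals are compressed and differences could not be read.

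**Figure D1:**
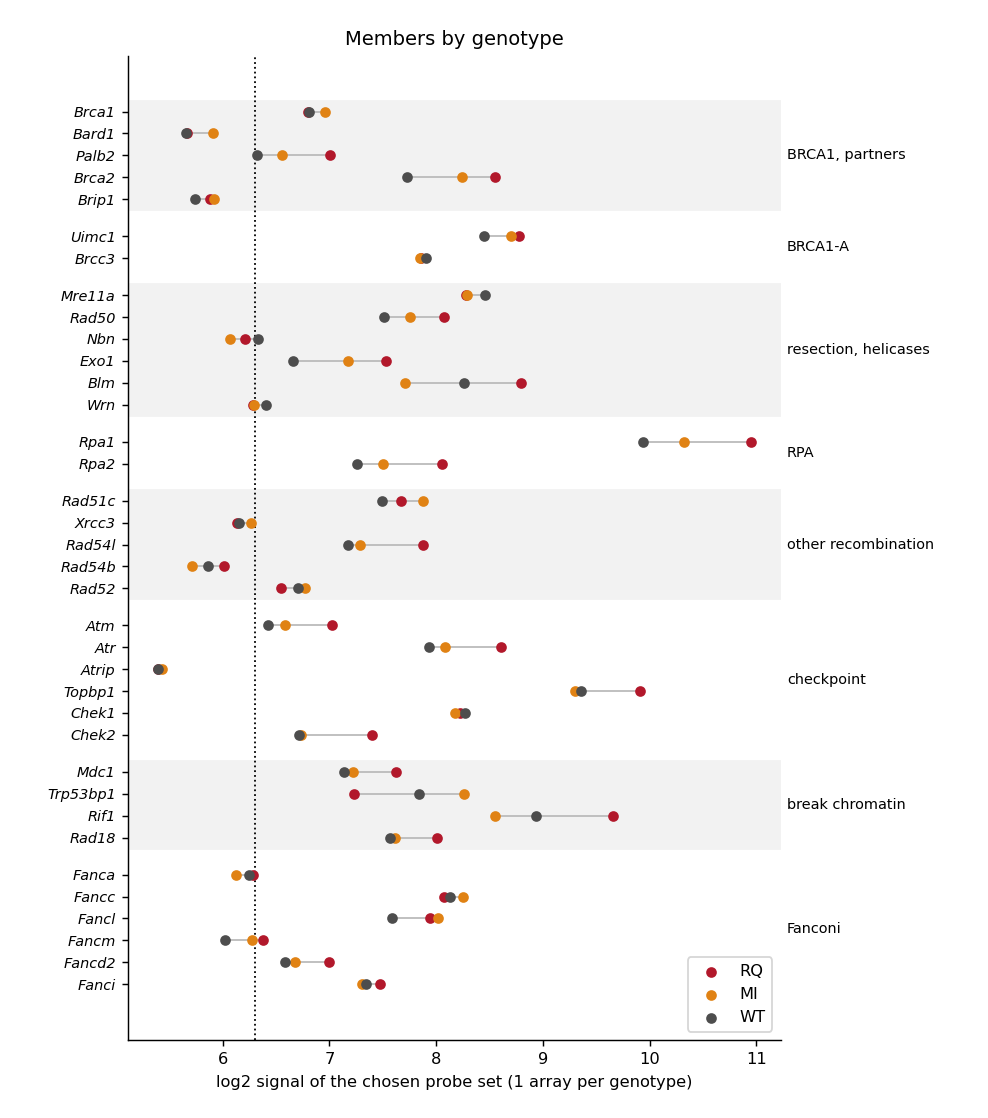
Log2 signal of each of the 36 members (rows, grouped by role) on the RQ, MI and WT arrays, 1 point per array; the dotted line is the level filter of 6.31. Rpa1, Rpa2, Exo1, Brca2 and Palb2 lie highest in RQ and lowest in WT, Trp53bp1 lies lowest in RQ, and 6 members lie left of the line on every array.

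Promoter sequences are shown for the members that carry a known S-phase promoter element, so that the differences can be read beside the DNA. E2F factors drive S-phase genes through sites of the type TTTCCCGC, TTTGGCGC, TTTCGCGC or TTTGCCGC. RefSeq promoters of build GRCm38.p6 (250 bases before to 50 bases after the start) were at hand for 29 of the 39 members, and 6 of these genes (20.7%) held an E2F element on either strand, against 2.6% of 27025 genes. The element is in capitals below, each sequence is written 5′ to 3′ on the gene's own strand, and a match describes letters, not a bound factor.
Brca2, chr5:150522423-150522490, + strand: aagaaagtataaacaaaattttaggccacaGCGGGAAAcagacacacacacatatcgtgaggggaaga
Chek2, chr5:110839801-110839868, + strand: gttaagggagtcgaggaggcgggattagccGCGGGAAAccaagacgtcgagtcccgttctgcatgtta
Mdc1, chr17:35841452-35841517, + strand: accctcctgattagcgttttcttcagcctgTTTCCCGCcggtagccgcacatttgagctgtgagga
Topbp1, chr9:103305168-103305235, + strand: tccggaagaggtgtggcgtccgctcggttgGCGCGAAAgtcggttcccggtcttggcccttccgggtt
Rad51c, chr11:87404935-87404989, - strand: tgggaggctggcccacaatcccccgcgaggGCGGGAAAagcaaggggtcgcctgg
Bard1, chr1:71103144-71103211, - strand: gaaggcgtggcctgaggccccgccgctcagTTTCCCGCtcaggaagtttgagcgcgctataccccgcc
In RQ against WT the 5 of these genes above the filter differed by 0.83 (Brca2), 0.68 (Chek2), 0.49 (Mdc1), 0.55 (Topbp1) and 0.18 (Rad51c), while Bard1 lay below the filter. The 19 other members with a promoter and above the filter spanned -0.60 to 1.01. Of these 12 were above 0, against 51.7% of all genes above the filter.

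The next promoters, of 3 genes that were higher in RQ and of Trp53bp1, which was lower, were chosen after their values were seen. They give the 100 bases before the start, with CCAAT boxes, the element bound by NF-Y, in capitals in either orientation. CCAAT was found in the promoters of 18 of the 29 members (62.1%) and of 41.1% of all genes.
Rpa1, chr11:75348384-75348483, - strand: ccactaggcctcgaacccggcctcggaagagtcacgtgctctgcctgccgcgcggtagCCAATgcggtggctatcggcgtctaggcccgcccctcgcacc
Rpa2, chr4:132768260-132768359, + strand: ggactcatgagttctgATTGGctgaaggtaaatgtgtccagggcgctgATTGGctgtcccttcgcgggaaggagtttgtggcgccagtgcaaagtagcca
Rad54l, chr4:116123691-116123790, - strand: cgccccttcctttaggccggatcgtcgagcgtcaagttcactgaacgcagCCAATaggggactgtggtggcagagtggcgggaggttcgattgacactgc
Trp53bp1, chr2:121271408-121271507, - strand: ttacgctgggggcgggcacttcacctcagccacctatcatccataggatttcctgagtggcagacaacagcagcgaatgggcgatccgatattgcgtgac
The first 3 hold a CCAAT box in this window and the Trp53bp1 promoter does not. In RQ against WT, 51.7% of all genes above the filter were above 0. Of the members above the filter, 10 of 14 with a CCAAT box in the promoter and 7 of 10 without one were above 0. Mre11a (-0.18) is among those with a box and Brca2 (0.83) among those without.

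BRCA1 and its direct partners were unlike each other. Brca2, a tumour suppressor gene like BRCA1, read 8.55 in RQ, 8.25 in MI and 7.72 in WT. Its signal in RQ was 1.78-fold that of WT (difference 0.83) and stood above WT on both mutant arrays. Palb2, the bridge between BRCA1 and BRCA2, read 7.01 in RQ, 6.56 in MI and 6.32 in WT, 1.61-fold the WT signal in RQ. Both genes are read by a single probe set, so no second probe set stands beside them, and that of Brca2 is of a type that may match several transcripts. The brightest mouse Brca1 probe set read 6.80 in RQ, 6.96 in MI and 6.81 in WT. The other Brca1 probe sets above the filter differed by -0.08 and 0.03 between RQ and WT, and by -0.52 and -0.09 between MI and WT, against 0.15 for the brightest. With means of probe sets Brca1 differed by -0.19 in MI, so its direction there depends on the probe set. Since these probes were made for the mouse gene, they need not read the human BRCA1 the cells were given. Bard1, the partner of BRCA1 in its ubiquitin ligase, and Brip1, a helicase that binds BRCA1, were below the filter. In the BRCA1-A complex, which docks BRCA1 on ubiquitin at breaks, Uimc1 (RAP80) read 8.78 in RQ, 8.70 in MI and 8.45 in WT. The deubiquitinase gene Brcc3 read 7.85 in RQ, 7.85 in MI and 7.91 in WT and its other probe sets above the filter differed by -0.04 to 0.05 between RQ and WT.

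Both RPA genes were higher in RQ on every probe set. Rpa1, the large subunit, read 10.95 in RQ, 10.32 in MI and 9.94 in WT, a signal 2.01-fold that of WT in RQ. Its second probe set gave a difference of 0.81. Rpa2, the middle subunit, read 8.06 in RQ, 7.50 in MI and 7.26 in WT, 1.74-fold the WT signal in RQ. Its second probe set gave 1.05 between RQ and WT. The small subunit gene Rpa3, which is not a member and was looked up after these values were seen, read 9.01 in RQ, 8.77 in MI and 8.42 in WT, a difference of 0.59 between RQ and WT as deposited and 0.55 after correction.

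The resection genes split. Exo1 read 7.53 in RQ, 7.17 in MI and 6.66 in WT, 1.84-fold the WT signal in RQ, and its second probe set above the filter gave a difference of 0.46. Within the MRE11 complex the subunits were not alike: the ATPase gene Rad50 read 8.07 in RQ, 7.76 in MI and 7.52 in WT. The nuclease gene Mre11a read 8.28 in RQ, 8.29 in MI and 8.46 in WT, slightly below WT on both mutant arrays as deposited. In MI it differed by -0.17 as deposited and -0.01 after correction, and its second probe set gave 0.10. Its direction in MI thus depends on the probe set. Nbn, the third subunit, read 6.21 in RQ, 6.07 in MI and 6.33 in WT, near the filter. Of the RecQ helicase genes, Blm read 8.79 in RQ, 7.70 in MI and 8.26 in WT, so that the mutants lay on opposite sides of WT. Wrn read 6.29 in RQ, 6.30 in MI and 6.41 in WT, and its probe sets above the filter differed in sign.

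Among the other recombination factors, Rad54l, a DNA translocase, read 7.88 in RQ, 7.29 in MI and 7.18 in WT, 1.63-fold the WT signal in RQ. Its 3 other probe sets lay below the filter. Rad51c read 7.67 in RQ, 7.88 in MI and 7.49 in WT, and both of its probe sets were above WT in RQ (0.18 and 0.27) and in MI (0.38 and 0.35). Rad52 read 6.54 in RQ, 6.77 in MI and 6.71 in WT.

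In the checkpoint group the kinase genes were higher in RQ, with the exception of Chek1. Atr read 8.61 in RQ, 8.08 in MI and 7.93 in WT, 1.60-fold the WT signal in RQ, but its other probe sets above the filter gave differences of 0.13 and -0.17. Atm read 7.03 in RQ, 6.58 in MI and 6.42 in WT, which put it just inside the 1.5-fold limit (1.52-fold). Chek2, the kinase downstream of ATM, read 7.40 in RQ, 6.73 in MI and 6.72 in WT, so that RQ stood apart from both other arrays. Chek1, the kinase downstream of ATR, read 8.22 in RQ, 8.18 in MI and 8.27 in WT, and its 4 probe sets above the filter stayed between -0.05 and 0.12 in RQ against WT. Topbp1, which activates ATR, read 9.91 in RQ, 9.30 in MI and 9.36 in WT, just outside the limit at 1.47-fold.

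Among the factors that sit on chromatin at breaks, Rif1 and Trp53bp1 went opposite ways in RQ. Rif1, the partner of 53BP1 and also a regulator of replication timing, read 9.66 in RQ, 8.55 in MI and 8.93 in WT. Its 4 probe sets above the filter were all above WT in RQ, by 0.24 to 0.73, while in MI they gave -0.38, 0.09, -0.37 and 0.28. After correction the brightest gave -0.16 in MI against WT. The second brightest read 9.27 in RQ, 8.64 in MI and 8.55 in WT, so the order of MI and WT depends on the probe set. Trp53bp1 read 7.23 in RQ, 8.26 in MI and 7.84 in WT, the reverse order of the brightest Rif1 probe set. Its second probe set above the filter read 7.33 in RQ, 7.61 in MI and 7.50 in WT, which has the same order with a smaller difference (-0.17 between RQ and WT). The low Trp53bp1 reading in RQ thus rests on 1 probe set. Mdc1, the adaptor that binds phosphorylated H2AX, read 7.63 in RQ, 7.22 in MI and 7.14 in WT. Rad18, a ubiquitin ligase of damage tolerance, read 8.01 in RQ, 7.62 in MI and 7.57 in WT, and its second probe set above the filter gave -0.19 between RQ and WT, against 0.44 for the brightest.

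No Fanconi gene reached 1.5-fold in RQ. Among those above the filter on both arrays, the largest differences were those of Fancd2, the protein that is ubiquitinated at crosslinks (0.41), and Fancl, the ubiquitin ligase of the pathway (0.35). Fancm, a DNA translocase, gave 0.35, but read 6.37 in RQ, 6.27 in MI and 6.02 in WT, so it passed the filter through RQ alone. Its other probe sets, below the filter, gave 0.04 and 0.07. Fancl read 7.94 in RQ, 8.02 in MI and 7.59 in WT and was thus above WT on both mutant arrays. Fancd2 read 6.99 in RQ, 6.67 in MI and 6.59 in WT. The other probe sets of Fancd2 above the filter gave 0.06 and -0.02 in RQ against WT. Fanci, the partner of FANCD2, read 7.47 in RQ, 7.30 in MI and 7.34 in WT. Fancc, a core complex subunit, read 8.07 in RQ, 8.26 in MI and 8.13 in WT.

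**Figure D2:**
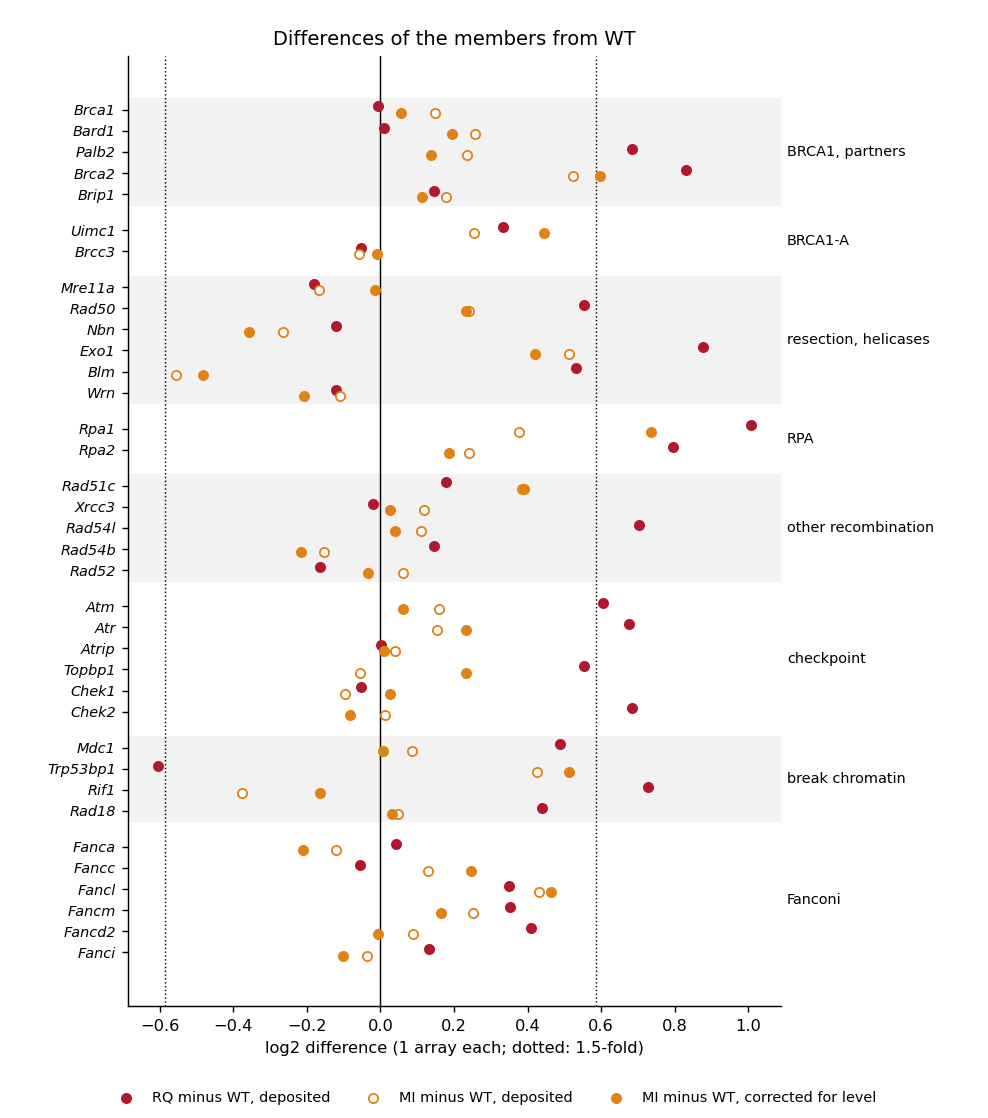
Log2 difference from WT of each member (rows, grouped by role) for RQ as deposited (filled red), MI as deposited (open) and MI after correction for signal level (filled orange), 1 array per genotype; dotted lines mark 1.5-fold. In RQ 10 members lie right of the limit and Trp53bp1 left of it; in MI no deposited value passes the limit, and Rpa1 and Brca2 pass it after correction.

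Agreement between probe sets sets a limit on single genes. Of 16 members with at least 2 probe sets above the filter, 8 had all of them on the same side of 0 in RQ against WT (50.0%), compared with 57.7% of 4570 such genes overall. The 8 with mixed signs were Atr, Brca1, Brcc3, Chek1, Fancc, Fancd2, Rad18 and Wrn. In MI against WT agreement was lower, at 6 of 16 members (37.5%), compared with 64.1% of 4765 genes. The members mixed there were Atr, Brca1, Brcc3, Chek1, Fancd2, Fanci, Mre11a, Rad18, Rif1 and Wrn. Between RQ and MI, 10 of 15 members agreed (66.7%), compared with 63.0% of 4809 genes. Averaging all probe sets of each gene left 5 of 27 members above the filter at least 1.5-fold higher and 0 lower. Their median was 0.22, against 0.01 for all genes. The share of all genes past 1.5-fold was not computed for these averages.

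**Figure D3:**
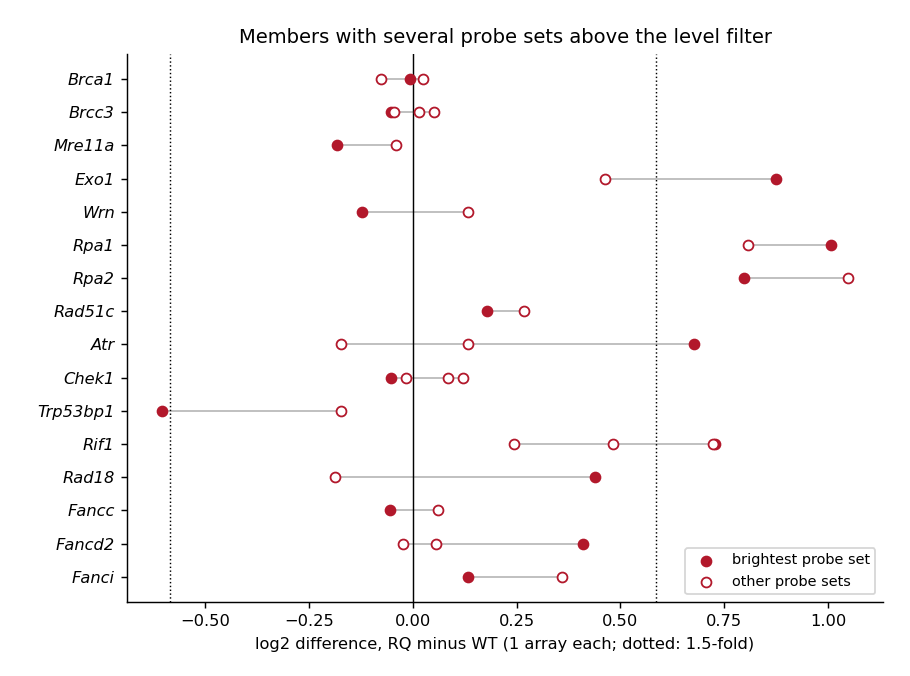
Log2 difference between RQ and WT for every probe set above the level filter of the 16 members that have at least 2 of them (rows); filled points are the brightest probe set of a gene, open points the others, and dotted lines mark 1.5-fold. Every probe set of Rpa1, Rpa2, Exo1 and Rif1 lies right of 0, whereas those of Atr, Rad18 and Fancd2 spread over both sides.

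The second comparison puts the same question to the MI variant, against the same WT array. Brca2 and Rpa1 stood highest above WT after correction, and no member was 1.5-fold higher or lower as deposited. The deposited counts were thus 0 higher and 0 lower of 29 members above the filter, against 1.92% and 8.04% of 12786 genes. After correction for level, 2 members were at least 1.5-fold higher and 0 lower, against 2.61% and 6.07% of genes. The median difference of the members was 0.11 as deposited and 0.06 after correction, and that of all genes was 0.06 and 0.0024. As deposited, 20 of 29 members were above 0, against 59.5% of genes.

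The correction is largest for the brightest members, and it also turns the sign of some members near 0. Over all genes, the deposited MI minus WT difference had a median of 0.10 at mean levels of 6 to 7, -0.22 at 8 to 9 and -0.39 at 10 or more. Rpa1, the brightest member, differed from WT by 0.38 as deposited and 0.74 after correction. Topbp1 differed by -0.05 as deposited and by 0.23 after correction, so its direction in MI depends on the scaling. The same holds for Chek1 (-0.10 and 0.03), Fancd2 (0.09 and -0.0075), Rad52 (0.06 and -0.03) and Chek2 (0.01 and -0.08). Brca2 differed by 0.52 as deposited and 0.60 after correction, and Exo1 by 0.51 and 0.42. Fancl (0.43 and 0.47), Uimc1 (0.26 and 0.44) and Rad51c (0.38 and 0.39) were also above WT on both scales. Trp53bp1 was above WT in MI (0.42 as deposited, 0.51 corrected), although its second probe set gave 0.11 as deposited. Blm was below WT (-0.56 and -0.48) with a single probe set, and so was Nbn (-0.27 and -0.36), which lay below the filter in MI.

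**Figure D4:**
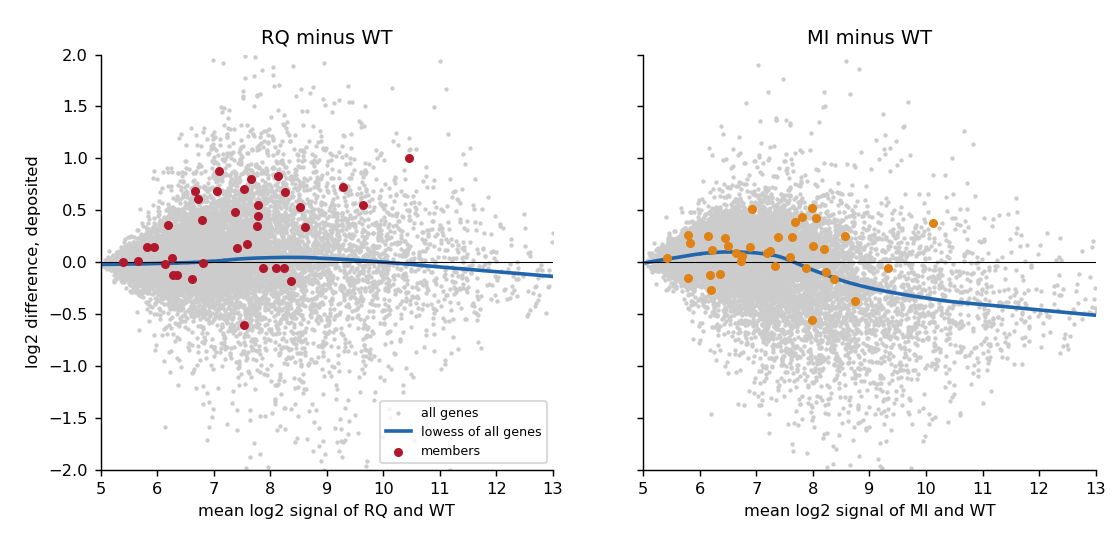
Deposited log2 difference against mean log2 signal for all genes (grey) and the members (coloured), RQ minus WT on the left and MI minus WT on the right, with the lowess of all genes as a blue line; genes beyond the axis limits are not shown. The line stays near 0 for RQ and lies below 0 above a level of 8 for MI, where Rpa1 lies well above it.

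In RQ against WT the differences also varied with level. The 12 members at mean levels of 7 to 8 had a median of 0.46, where all 3473 genes had 0.03 and a range from the 5th to the 95th percentile of -0.56 to 0.78. The 8 members above the filter at levels of 6 to 7 had a median of 0.17, against -0.0041 for 5976 genes. At 8 to 9 the median of 7 members was 0.33, against 0.06 for 1480 genes, and at 9 to 10 that of 2 members was 0.64, against 0.04 for 707 genes. Rpa1 was the 1 member at 10 or more (1.01).

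The third comparison sets RQ against MI. Rif1 (2.15-fold) and Blm (2.13-fold) stood at least 2-fold above MI in RQ, and Trp53bp1 at least 2-fold below it (0.49-fold), against 1.98% of genes that were higher and 0.508% that were lower by that much. At 1.5-fold there were 6 members higher and 1 lower of 28 above the filter, the others higher being Chek2, Rpa1, Topbp1 and Rad54l. The share of all genes past this limit was 9.54% higher and 1.55% lower. After correction for level, 3 members were higher (Blm 0.89, Rif1 0.79 and Chek2 0.73) and Trp53bp1 was lower (-1.11), against 6.41% and 2.39% of genes. Rpa1 differed by 0.63 as deposited and 0.26 after correction. The median difference of the members was 0.32 as deposited and 0.23 after correction, and that of all genes was -0.05 and -0.0036. As deposited, 21 of 28 members were above 0, against 44.0% of genes. The second Trp53bp1 probe set differed by -0.28, and the 4 Rif1 probe sets by 0.20 to 1.11.

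Genes of the same pathways outside the 39 had a lower median difference in RQ. Of 86 listed, 78 had a probe set and 64 lay above the filter in RQ against WT, with a median of 0.18. Of the 64, 47 were above 0 (73.4%), compared with 70.0% of the members and 51.7% of all genes. At 1.5-fold 9 were higher and 0 lower, against 6.9% and 4.34% of all genes. The list of BRCA1-A and break signalling genes stood highest, with 18 of 19 above 0, 5 past 1.5-fold and a median of 0.38. It was led by Hus1, part of the checkpoint clamp at damaged DNA, which read 7.82 in RQ, 7.42 in MI and 6.77 in WT. Usp1, the enzyme that removes ubiquitin from FANCD2, read 9.26 in RQ and 8.22 in WT. Other core recombination genes had a median of 0.01 and held both the highest and among the lowest differences. Fignl1, an AAA ATPase, read 9.98 in RQ, 10.05 in MI and 8.88 in WT. Its difference from WT was the highest among the DNA damage lists on both mutant arrays. Mms22l, which acts with TONSL at stalled forks, differed by -0.46 in RQ. Mnd1, known from meiosis, differed by -0.40, but it read 5.97 in RQ and 6.38 in WT and passed the filter through WT alone. The other Fanconi genes (median 0.04), the resection and junction enzymes (0.19) and the end-joining genes (0.12) lay nearer to all genes. In MI against WT, corrected for level, 34 of 66 were above 0, where 50.5% of all genes were, with a median of 0.03. At 1.5-fold 2 were higher and 3 lower, the latter including Swi5, a recombination accessory gene (-0.71). These counts were near the shares of all genes, 2.61% and 6.07%. Between RQ and MI the lowest as deposited were Xrcc4 (-0.39) of end joining and Faap24 (-0.35) of the Fanconi core. After correction these were -0.31 and -0.30, and Smc6 (-0.52), of a chromosome maintenance complex and named with its value in view, and Fignl1 (-0.43) lay lower.

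**Figure D5:**
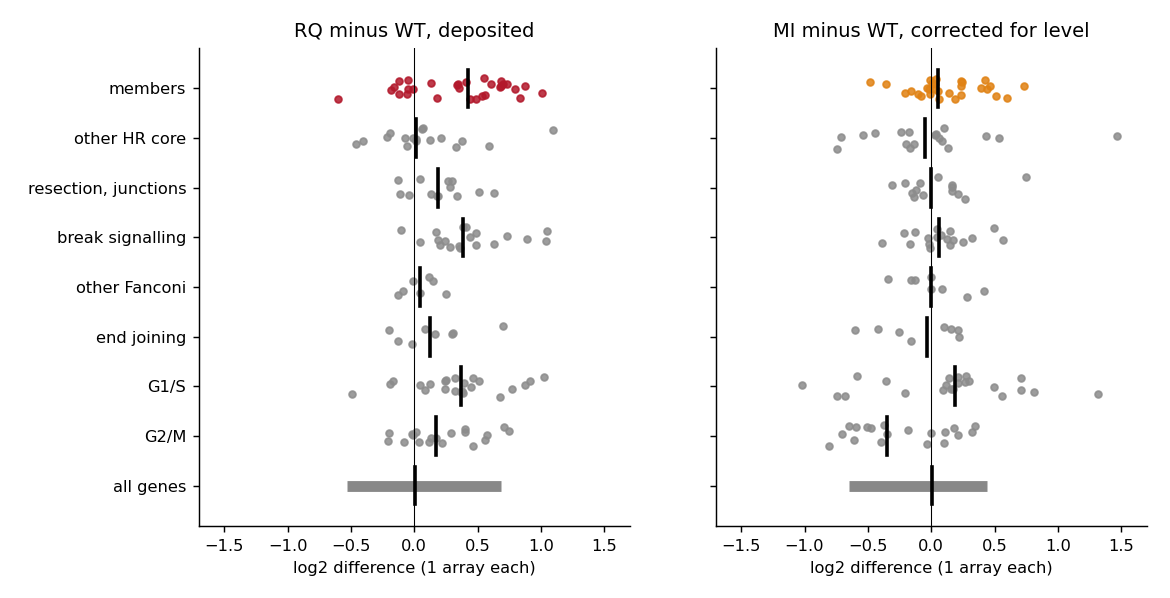
Log2 differences of the members and of the other gene lists (points, genes above the level filter), RQ minus WT as deposited on the left and MI minus WT corrected for level on the right; black bars are medians and the grey bar spans the 5th to the 95th percentile of all genes. In RQ the medians of the members (0.42), break signalling (0.38) and G1/S genes (0.37) lie right of that of all genes (0.01); in MI that of the members is 0.06.

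Genes of the cell cycle and of cell types differed on the same arrays. The G1/S list had 20 of 23 genes above 0 in RQ against WT, where 51.7% of all genes were. Its median was 0.37, close to that of the members. At 1.5-fold 5 of the 23 were higher, against 6.9% of all genes. Its lowest gene was Gins2, a subunit of the replicative helicase (-0.49). The G2/M list had a median of 0.17 in RQ. In MI the G1/S median was -0.12 as deposited and 0.19 after correction, so its direction depends on the scaling, with Gins1 at 1.32 and Uhrf1 at -1.02 after correction. The G2/M median in MI was -0.50 as deposited and -0.35 after correction, with Nusap1 at -0.80. Between RQ and MI the highest as deposited were Nusap1 (1.18), Mcm2 (1.12) and Cdt1 (1.12). The 12 markers of pluripotent cells had a summed linear signal of 24102 in RQ, 13666 in MI and 11063 in WT. In RQ against WT 11 of 12 were above 0, against 51.7% of genes. In MI against WT as deposited 8 of 11 above the filter were above 0, against 59.5% of genes. Pou5f1 (-1.17), Klf2 (-0.56) and Sox2 (-0.22) were below 0 there, and Pou5f1 stayed more than 1.5-fold lower after correction (-0.77). The MI sum is thus not shared by all pluripotency markers. The 15 markers of extraembryonic endoderm summed to 1799 in RQ, 2187 in MI and 13761 in WT, with 7, 8 and 12 of them at or above the level filter. As deposited, 8 of 12 above the filter were at least 1.5-fold below WT in RQ and in MI, against 4.34% and 8.04% of genes. Gata6, Sox17, Afp and Ttr were not. The 11 markers of fibroblasts and mesenchyme summed to 2335 in RQ, 5297 in MI and 2624 in WT. In MI 4 of 9 above the filter (S100a4, Dcn, Vim and Col1a2) were at least 1.5-fold above WT as deposited, against 1.92% of genes, and in RQ 0 of 7. The sums of the endoderm and the fibroblast lists thus rest on part of each list. Of the neural and the mesoderm and blood markers that lay above the filter, 0 differed from WT by 1.5-fold on either mutant array as deposited. In whole bodies, fewer cells of a type and less RNA per cell cannot be told apart, and the part of cell type or cell cycle in the members' differences was not tested.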

How the data were processed

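Total RNA of day 7 embryoid bodies (6 ug per sample) was hybridized to 1 Affymetrix mouse array for each of RQ, MI and WT, per the labels. The deposited values are log2 signals per probe set, and the submitters' processing notes name RMA and Partek, without versions. No source used here gives a genome build for the arrays. Of 45101 probe sets, the 34945 with 1 gene symbol in the platform annotation and not of the control type were used, and the brightest over the 3 arrays stood for each gene. Differences were computed on the log2 scale. The lowess (span 0.3, 3 iterations, statsmodels 0.14.6, Python 3.11.15) was fitted over all genes and tested on simulated data. Members, lists and promoter elements were chosen with earlier results of these data known. Every member may be named, as well as the 3 highest and 3 lowest other pathway genes per comparison and the 2 most different markers per list, and Rpa3 and Smc6 were added with their values in view. Alternatives were centring on medians, quantile normalization again, the lowess, no filter, a filter at the 75th percentile (6.92), means of probe sets, dropping probe sets whose type may match several transcripts, and a 2-fold limit. Scanner files and detection calls were not used here.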

Additional observations from a re-analysis of the deposited data

Results flagged for a closer look

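Blm and Trp53bp1 lay on opposite sides of WT in the RQ and MI bodies by at least 0.32 (log2) in each, both as deposited and after correction for level. Blm differed from WT by 0.53 in RQ and by -0.56 in MI, and Trp53bp1 by -0.60 in RQ and by 0.42 in MI. With 1 array per genotype the difference between the variants was not tested, and both comparisons share the WT array. Of 12041 genes above the level filter in both comparisons, 117 (0.972%) met the same condition. Blm has a single probe set, and the second Trp53bp1 probe set above the filter gave -0.17 in RQ and 0.11 in MI.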

How the results depend on the processing

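A median was taken as moved at a change of 0.1 or more and a count at more than 1.5 times. For RQ against WT (median 0.42, 10 higher, 1 lower), the median was 0.53 with the filter at the 75th percentile and 0.22 with means of probe sets, which left 5 higher and 0 lower. After dropping probe sets whose type may match several transcripts, 0 were lower, as Trp53bp1 then differed by -0.17, and at 2-fold 1 was higher and 0 lower. For MI against WT (median 0.11, 0 higher, 0 lower), 1 was lower with arrays centred on their medians, 4 were higher with quantile normalization again and 2 with the lowess. For RQ against MI (median 0.32, 6 higher, 1 lower), the median was 0.19 and 3 were higher with quantile normalization again, and 3 were higher with the lowess. The median was 0.17 without the filter and 0.14 with means of probe sets, where 0 were lower. After dropping probe sets whose type may match several transcripts, 0 were lower, and at 2-fold 2 were higher. The cause of these shifts was not tested beyond the construction of each alternative. Shares of all genes past 1.5-fold were not computed for the centred, quantile-normalized or averaged values, the 75th percentile filter or the dropped probe sets. Counts of members in those settings therefore have no background beside them. All other medians and counts stayed on the same side, and 0 single genes past 1.5-fold changed sign. In MI against WT no member passed 1.5-fold as deposited, so none could be counted there. Members inside the limit did change sign in each comparison. In MI against WT, with quantile normalization again, Topbp1 went from -0.05 to 0.33, Mre11a from -0.17 to 0.10 and Chek1 from -0.10 to 0.14. With means of probe sets Brca1 went from 0.15 to -0.19 there. In RQ against MI, with quantile normalization again, Uimc1 went from 0.08 to -0.30, Chek1 from 0.04 to -0.25 and Brca2 from 0.31 to -0.0023. In RQ against WT Chek1 went from -0.05 to 0.04 with means of probe sets. Single-gene differences moved by more than the median gap between probe sets in 25 of 87 values with quantile normalization again, 22 of 79 with means of probe sets, 12 of 87 with the lowess and 8 of 81 after dropping those probe sets. The level filters leave a single difference as it is. With 1 array per genotype no replicate could be left out. No paired analysis was possible because each group has 1 array.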

Other observations

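Probe sets that name a member beside another gene were not used above. The probe set shared by Atrip and Trex1 read 6.88 in RQ, 6.96 in MI and 6.71 in WT, and the brighter of those shared by Rad54b and Fsbp read 7.06 in RQ, 7.15 in MI and 7.59 in WT, so neither gives a reading for Atrip or Rad54b alone.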
